A study of Homo sapiens with 12 samples.

Results

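Endogenous retroviruses are remnants of retroviral infections of the germ line. An intact copy has a long terminal repeat at each end and, between the repeats, an internal part that held the gag, pol and env genes. The ERV1 family holds the human elements related to gammaretroviruses, and its internal parts are listed under many subfamily names. Described here are the internal parts of ERV1 that remain after the HERVH-int, HERV9, HERVE, MER41, MER57 and MER4 names are set aside. They include the lineages known as HERV-W (HERV17-int), HERV-R (HERV3-int), HERV-T (HERVS71-int), HERV-I (HERVI-int and the HERVIP10 names), the HUERS-P group, Harlequin and a long list of MER, LTR and PRIMA names. Members were chosen by name and strand alone: an ERV1 subfamily ending in -int, counted on the strand of the element. They came to 9956 loci in 56 subfamilies, among 1509971 transposable element loci with reads on their own strand in the 12 libraries. The ERV1 internal parts set aside numbered 7485 loci.

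The libraries came from PAR-CLIP of A375 cells, an established human melanoma line. Cells were transfected for transient expression of a V5-tagged protein, fed 4-thiouridine from 24 h after transfection and irradiated so that RNA crosslinked to protein, and RNA was then recovered with an anti-V5 antibody. Clover, a fluorescent protein, was the control. Z18fl was full-length ZC3H18, Z18trunc was ZC3H18 without its C-terminal end, and Z18truncZnFmut was the truncated protein with aromatic residues of the zinc finger mutated. Each group had 3 libraries, and all cells were of 1 line and also carried their own ZC3H18. ZC3H18 is a nuclear protein with a CCCH zinc finger that links the cap-binding complex to the machinery that hands RNA to the nuclear exosome. The comparisons ask which member RNAs came down with each form of ZC3H18 more or less than with Clover. The question behind them is whether the truncation and the zinc finger alter this. Values describe RNA recovered with the tagged protein, so that more binding and more of the RNA in the cell cannot be told apart, nor can fewer cells and less RNA per cell. The deposited files hold repeats alone, so that markers of A375 were not analysed here.

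Aligned fragments numbered 16683132 to 17673644 in Clover and 21285347 to 25686948 in the other 9 libraries. Members took 6397 to 6863 counts in Clover, 10140 to 12447 in Z18fl, 10252 to 11022 in Z18trunc, with 10230, 8983 and 22223 for Z18truncZnFmut. Z18truncZnFmut replicate 3 stood apart. It listed 7209 member loci, against 978 to 2600 in the other 11 libraries, and 30.95% of its member counts lay in 4093 loci that no other library listed. Its share of member reads on the strand of the element was 54.9%, against 59.1% to 66.6% elsewhere. Z18trunc replicate 3 came next, with 2600 loci and 7.15% of its counts in loci of its own. For Z18truncZnFmut, summed differences and counts of calls are given with and without replicate 3, and levels are given for each library.

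**Figure D1:**
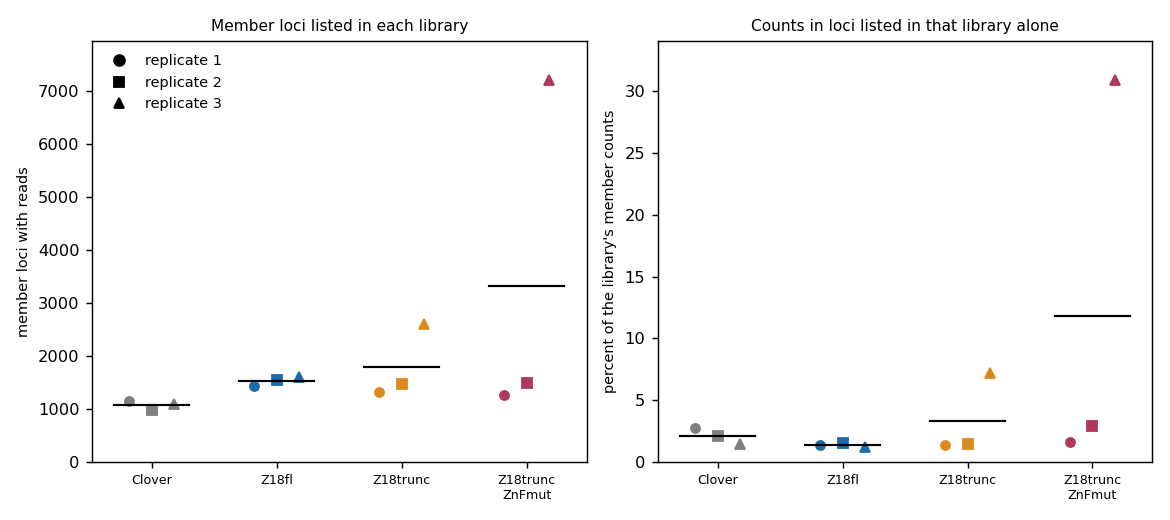
Member loci with reads in each library (left) and the percent of a library's member counts in loci that no other library listed (right). Symbols are replicates and black lines are means of 3 libraries. Z18truncZnFmut replicate 3 listed 7209 loci, and the next library, Z18trunc replicate 3, listed 2600.

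The first bases of the loci that the results turn on are shown to make plain which RNAs were measured. The first 5 belong to loci that were higher with Z18fl than with Clover, and the last to a HERV-W locus that was lower with Z18fl. Each line gives the first 150 bases of the annotated element in hg38, 5′ to 3′ on the strand of the element. Capitals mark AATAAA, known as the polyadenylation hexamer; ATTTA, known as the core of many AU-rich elements; and TTTTT, with longer runs of this base marked whole. They were searched on that strand only.
HERV3-int over ERV3-1, chr7:64999194-64999343, minus strand: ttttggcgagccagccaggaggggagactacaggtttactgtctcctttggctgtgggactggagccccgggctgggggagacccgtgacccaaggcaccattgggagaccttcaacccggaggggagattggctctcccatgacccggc
HERV3-int, chr11:29519152-29519301, plus strand: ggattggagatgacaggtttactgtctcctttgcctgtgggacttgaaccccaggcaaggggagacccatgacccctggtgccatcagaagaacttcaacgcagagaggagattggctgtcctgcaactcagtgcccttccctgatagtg
MER61-int over PURPL, chr5:27472715-27472864, plus strand: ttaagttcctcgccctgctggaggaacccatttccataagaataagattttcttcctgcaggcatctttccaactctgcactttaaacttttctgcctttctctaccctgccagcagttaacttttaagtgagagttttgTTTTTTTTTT
HERVP71A-int, chr1:247354310-247354459, plus strand: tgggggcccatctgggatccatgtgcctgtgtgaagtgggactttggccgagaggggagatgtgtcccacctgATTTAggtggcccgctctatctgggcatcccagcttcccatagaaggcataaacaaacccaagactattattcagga
HERVP71A-int, chr5:85647557-85647706, minus strand: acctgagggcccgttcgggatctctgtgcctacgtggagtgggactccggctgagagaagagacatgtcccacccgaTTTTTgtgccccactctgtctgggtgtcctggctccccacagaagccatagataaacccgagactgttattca
HERV17-int, chr13:55054428-55054577, plus strand: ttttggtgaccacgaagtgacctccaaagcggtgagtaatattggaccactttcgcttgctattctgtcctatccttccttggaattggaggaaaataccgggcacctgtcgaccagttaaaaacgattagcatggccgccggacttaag

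The HERV3-int windows on chromosomes 7 and 11 share a run of 21 bases, acaggtttactgtctcctttg, and begin at different points of the element. The HERVP71A-int windows share a run of 9 bases. None of these motifs lies in the windows of HERV3-int and HERV17-int, which says only that these letters are not in the first 150 bases. Among all 9266 member loci of at least 150 bases, 14.5% of such windows held the polyadenylation hexamer, 26.15% the AU-rich core and 34.2% the run of T. In the 7047 windows of the ERV1 internal parts set aside the shares were 9.465%, 19.2% and 30.3%.

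Summed over all loci, members were modestly higher with each ZC3H18 form than with Clover when counts were set against aligned fragments. Levels are given as CPM, which here means counts per 1000000 aligned fragments. Clover had a member CPM of 411, 374 and 383.5, Z18fl 438, 460.5 and 485, Z18trunc 431, 451.5 and 466, and Z18truncZnFmut 423, 422 and 918. All 9 ZC3H18 libraries lay above the 3 Clover libraries. The mean log2 difference from Clover was 0.24 for Z18fl, 0.21 for Z18trunc and 0.49 for Z18truncZnFmut, each with p = 0.10 in a two-sided exact permutation test, which is the smallest value that 3 libraries against 3 allow, and 0.167 after Benjamini-Hochberg adjustment over 10 tests. Without replicate 3 the Z18truncZnFmut difference was 0.12. Z18trunc and Z18fl overlapped (log2 difference −0.04, exact permutation p = 0.50). The same was true of Z18truncZnFmut and Z18trunc, with a log2 difference of 0.285 that became −0.09 without replicate 3 (exact permutation p = 1 with all libraries).

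The direction of that sum depended on the yardstick. As a share of all transposable element counts on the same strand, members were lower with Z18fl and Z18trunc, with 0.968% to 1.01% in Clover, 0.846% to 0.933% in Z18fl and 0.776% to 0.800% in Z18trunc. Z18truncZnFmut had 0.795% and 0.819% in replicates 1 and 2 and 1.02% in replicate 3, above every Clover library, so that its groups overlapped. The log2 difference from Clover on this scale was −0.15 for Z18fl and −0.32 for Z18trunc (exact permutation p = 0.10 each). It was −0.18 for Z18truncZnFmut (exact permutation p = 0.40) and −0.29 without replicate 3. With Z18fl and Z18trunc, members were thus higher per aligned fragment and lower as a share of the elements. Without exonic loci, the log2 difference per aligned fragment was 0.40 for Z18fl and 0.355 for Z18trunc.

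Relative to the ERV1 internal parts set aside, members were higher with Z18fl and Z18trunc than with Clover. The log2 ratio of member counts to the counts of those other parts was −1.855, −1.94 and −2.11 in Clover, −1.09, −1.17 and −1.12 in Z18fl, −1.59, −1.565 and −1.31 in Z18trunc, with −1.865, −1.99 and −1.17 for Z18truncZnFmut. The groups did not overlap for Z18fl or Z18trunc against Clover, nor for Z18trunc against Z18fl. The differences were 0.84, 0.48 and −0.36, each with exact permutation p = 0.10 (0.167 adjusted). The ratio moved on both sides, since the parts set aside had 1433 to 1657 CPM in Clover and 930 to 1055 in Z18fl. For Z18truncZnFmut the difference from Clover was 0.295 and the groups overlapped (exact permutation p = 0.50). It was 0.04 without replicate 3.

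Per aligned fragment, intronic members were higher with every ZC3H18 form, whereas exonic members were not. Of the 9956 loci, 5405 lay between genes, 2416 antisense to a gene, 1928 in an intron on the gene's own strand and 207 with at least 50% of their length in exons on their own strand. Intronic members took 120, 116 and 115 CPM in Clover, 171, 176 and 183 in Z18fl, 145, 166 and 154 in Z18trunc, with 146, 151 and 223 for Z18truncZnFmut. Every ZC3H18 library lay above Clover, and every Z18fl library above every Z18trunc library. Elements as a whole rose on this yardstick too. The median log2 fold change from Clover over all loci tested was 0.37 for Z18fl, 0.31 for Z18trunc and 0.15 for Z18truncZnFmut. Sums by gene context were not set against all element counts. Exonic members, in contrast, took 123 to 136 CPM in Clover and 113 to 129 in Z18fl, with overlapping groups. Much of this exonic sum came from pieces of HUERS-P3-int over the gene NCR3LG1 on chromosome 11. The longest had a mean CPM of 66.9 in Clover and 52.5 in Z18fl, and its exonic neighbour 10.2 and 9.27. The exonic level thus depended largely on a single stretch. Members between genes had 82.7 to 97.7 in Clover and 90.6 to 101 in Z18fl, and these also overlapped. In Z18truncZnFmut replicate 3 the loci between genes reached 373 and those antisense to genes 198, whereas its exonic loci stayed at 124.

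**Figure D2:**
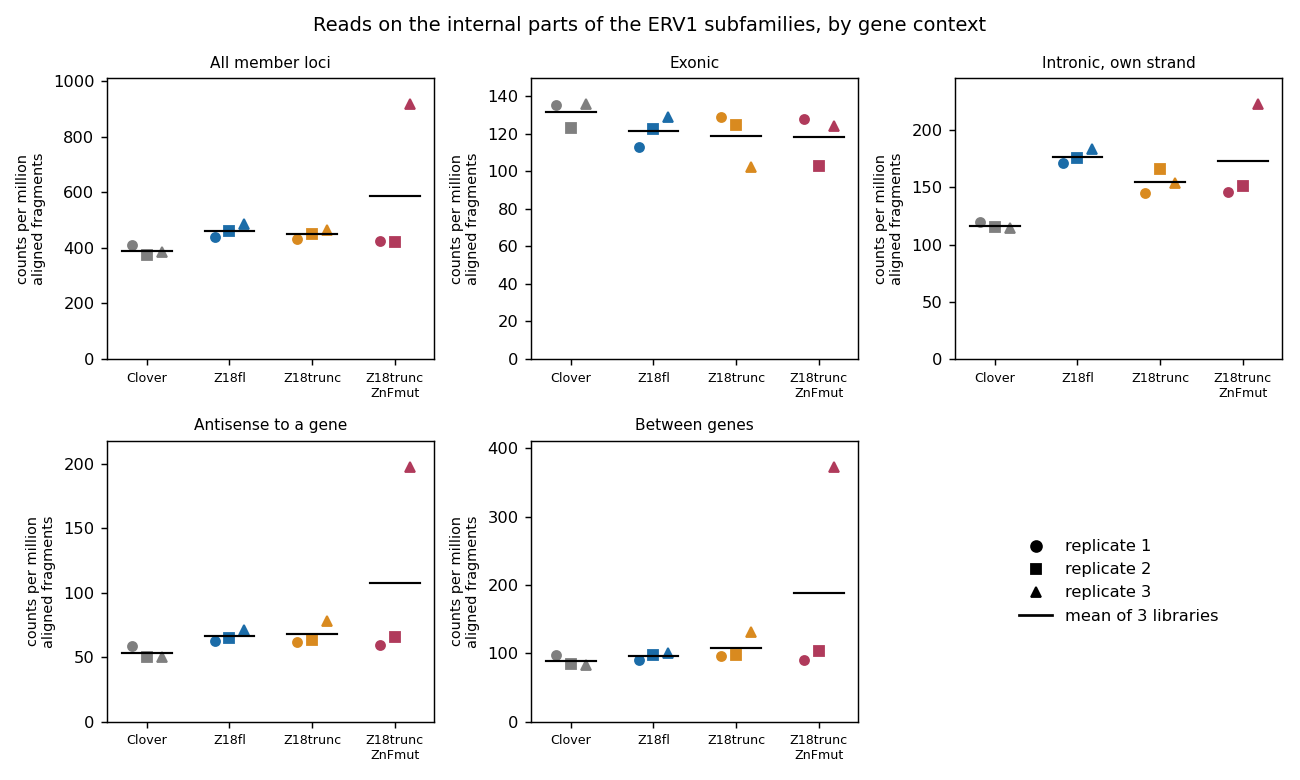
Member CPM (counts per 1000000 aligned fragments) in each library, for all loci and by gene context. Symbols are replicates and black lines are means of 3 libraries. Intronic members were higher in every Z18fl library (171 to 183) than in every Clover library (115 to 120), whereas exonic members overlapped, and Z18truncZnFmut replicate 3 was high mainly between genes and antisense to genes.

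Single loci were compared with the quasi-likelihood test of edgeR after TMM scaling, which centres each library on the bulk of the loci, and calls were made at a Benjamini-Hochberg adjusted p under 0.05 over all elements tested. Few members held enough reads. In all, 183 loci were tested in at least 1 comparison, with 65.3% of the member counts, so that 9773 loci were not. Scaling by aligned fragments instead moved the median log2 fold change of all loci from 0.01 to 0.37 for Z18fl against Clover, from −0.03 to 0.31 for Z18trunc and from −0.05 to 0.15 for Z18truncZnFmut, and changes below are relative to that bulk. Leaving out the filter on low counts also changed the falls, and it is not shown to be a separate effect from the scaling. For HUERS-P3-int at chr11:17370374 with Z18fl, for example, the log2 fold change was −0.71 with the filter and −0.41 without it. With aligned fragments it was −0.35. With no filter 4 member loci were lower with Z18fl and none with Z18trunc or Z18truncZnFmut.

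With Z18fl, 34 of 131 tested member loci were higher than with Clover (25.95%, background 28.3% of all 12098 loci tested) and 21 were lower (16.03%, background 24.6%). The share of higher loci was near the background and says nothing particular about members. The median log2 fold change of members was 0.16 against 0.01 over all loci. With aligned fragments as the library size 49 were higher and 9 lower. The median log2 fold change was then 0.52 for members and 0.37 over all loci, and the share called over all loci is not given for that scaling. Intronic members made up most of the rises, with 23 of 61 higher and 4 lower (median log2 fold change 0.595). Exonic members leaned the other way, with 2 of 21 higher and 7 lower (median −0.35). Of the 42 tested loci in introns of long noncoding RNA genes 16 were higher, and so were 6 of 15 in introns of protein-coding genes. The shares over all intronic or all exonic elements are not given, so that this split is not shown to be particular to members. Other internal parts divided between introns and exons to differing degrees. In ERVL 25 of 48 intronic loci were higher and 18 of 24 exonic loci lower. In ERVK 10 of 18 intronic loci were higher, but so were 3 of 10 exonic loci, with 1 lower. In the ERV1 internal parts set aside 16 of 159 were higher and 82 lower. Among their intronic loci 7 of 34 were higher and 9 lower (median log2 fold change −0.17). Of their 10 exonic loci 0 were higher and 5 lower (median −0.51). The count of lower members was 11 without Z18fl replicate 3 and 13 without replicate 2. Neighbouring pieces of 1 insertion are not independent: the 34 higher loci formed 30 stretches and the 21 lower loci 16, when pieces of a subfamily within 10000 bases were joined.

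HERV-R, with few tested loci, had 3 of 4 higher with Z18fl and none lower (background 28.3% higher and 24.6% lower). HERV3-int at chr7:64990916-64999343 lies in ERV3-1, a gene that encodes a HERV-R envelope protein, with 29.65% of its length in exons. It had 2.46, 1.75 and 1.64 CPM in Clover, 6.09, 6.58 and 6.50 in Z18fl, 4.50, 4.34 and 5.11 in Z18trunc, with 4.22, 3.57 and 3.35 for Z18truncZnFmut. All 9 ZC3H18 libraries lay above Clover, and Z18fl lay above the other forms. By edgeR the fold change from Clover on the log2 scale was 1.35 (SE 0.20, adjusted p = 2.5e-05) for Z18fl and 0.91 (SE 0.22, adjusted p = 0.00252) for Z18trunc, and both calls held in all 13 alternatives tried. For Z18truncZnFmut it was 0.73 (SE 0.24, adjusted p = 0.0374). That call was lost without Clover replicate 1, 2 or 3 or Z18truncZnFmut replicate 1 or 3, with adjusted p-values of 0.0533 to 0.212 by edgeR, while the log2 fold change stayed between 0.58 and 0.85. It was also lost with DESeq2 (adjusted p = 0.0718), with no filter (0.402) and in a single fit of all 12 libraries (log2 fold change 0.55, adjusted p = 0.0717).

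A second HERV3-int locus lies at chr11:29519152-29527353, in an intron of the long noncoding RNA gene ENSG00000255029. It had 0.24, 0.70 and 0.45 CPM in Clover, from 4, 12 and 8 counts, and 4.66, 4.88 and 4.67 in Z18fl, from 108, 112 and 120 counts. Z18trunc had 1.60, 1.69 and 1.39 and Z18truncZnFmut 1.28, 1.13 and 1.73. The level with Z18fl was thus several times that of the other forms, with no overlap. By edgeR the log2 fold change from Clover was 2.97 (SE 0.30, adjusted p = 4.11e-07) for Z18fl, 1.38 (SE 0.39, adjusted p = 0.0085) for Z18trunc and 1.36 (SE 0.44, adjusted p = 0.0323) for Z18truncZnFmut. Z18trunc against Z18fl gave −1.68 (SE 0.19, adjusted p = 2.87e-05) by edgeR, and this and the Z18fl call held in all 13 alternatives. The Z18trunc call was lost without Clover replicate 1 (adjusted p = 0.0595 by edgeR) and with unique reads (0.0838). The Z18truncZnFmut call was lost without Clover replicate 1 or 3 or Z18truncZnFmut replicate 3 (adjusted p = 0.117 to 0.175), with DESeq2 (0.0671) and with no filter (0.141), and the locus was not tested with unique reads. Of the other HERV3-int loci tested, the one at chr7:135176994-135180551 was higher in Z18fl (log2 fold change 1.53, adjusted p = 0.0102 by edgeR) and the one on chromosome 14 was not called. These were added after their values were seen. As a subfamily of 164 loci, HERV3-int summed to 4.81 to 6.41 CPM in Clover, 15.85 to 17.9 in Z18fl and 9.93 to 12.6 in Z18trunc.

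The remaining env genes of the ERV1 family gave few or no reads. Member loci over exons of ERVFRD-1, ERVH48-1, ERVMER34-1, ERVV-1 and ERVV-2 had 0 to 4 counts in each library. ERVW-1, which encodes syncytin-1, the HERV-W envelope that fuses cells of the placenta, had 0 to 4 counts in 11 libraries and 13.2 in Z18truncZnFmut replicate 3. A count of 0 allows up to 3 counts, which is a CPM of 0.117 to 0.1798 in these libraries, so that a difference was not detectable at this depth. The MER50-int locus at chr9:21930151-21931320, over exons of both ERVFRD-3 and MTAP, had 1.42 to 1.64 CPM in Clover and 1.30 to 1.87 in Z18fl and was not called in any comparison with Clover.

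Harlequin, a mosaic internal part, had higher levels with Z18fl. It summed to 21.0, 22.5 and 24.2 CPM in Clover, 40.0, 40.3 and 47.8 in Z18fl, 29.3, 33.1 and 32.4 in Z18trunc, with 28.8, 27.2 and 50.7 for Z18truncZnFmut. Groups did not overlap for Z18fl against Clover, Z18trunc against Clover or Z18trunc against Z18fl. For Z18trunc against Clover the difference depended on the scaling. Subfamily counts gave a log2 fold change of 0.015 (SE 0.11, adjusted p = 0.953 by edgeR) after TMM scaling. With aligned fragments as the library size it was 0.49 (adjusted p = 0.00189). Of 18 Harlequin-int loci tested with Z18fl 10 were higher and 1 lower (background 28.3% and 24.6%). With Z18trunc 1 of 12 was higher (background 22.5%) and with Z18truncZnFmut 1 of 10 (background 12.3%), which is no more than the share over all loci. Subfamily counts of Harlequin-int gave a log2 fold change of 0.44 for Z18fl against Clover (SE 0.10, adjusted p = 0.00189 by edgeR) and −0.48 for Z18trunc against Z18fl (SE 0.09, adjusted p = 0.00677). The call between the ZC3H18 forms was lost without Z18trunc replicate 1 (adjusted p = 0.0564) and with the replicate block (0.112). Neither call remained in a single fit of all 12 libraries, with adjusted p = 0.0943 for Z18fl against Clover and 0.546 between the forms by edgeR, at log2 fold changes of 0.44 and −0.45. The largest rises among loci with at least 20 mean counts were at chr7:24789747-24790688, in an intron of ENSG00000287093, with 0 to 0.12 CPM in Clover and 0.90 to 1.13 in Z18fl, and at chr6:35001831-35003823, in an intron of ANKS1A, with 0.06 to 0.17 in Clover and 0.78 to 1.285 in Z18fl. Their log2 fold changes by edgeR were 3.27 (SE 0.61, adjusted p = 0.000262) and 2.90 (SE 0.57, adjusted p = 0.000375). In both, Clover held 5 counts or fewer over its 3 libraries, so that the size of the fold is uncertain, and neither was tested with unique reads.

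**Figure D3:**
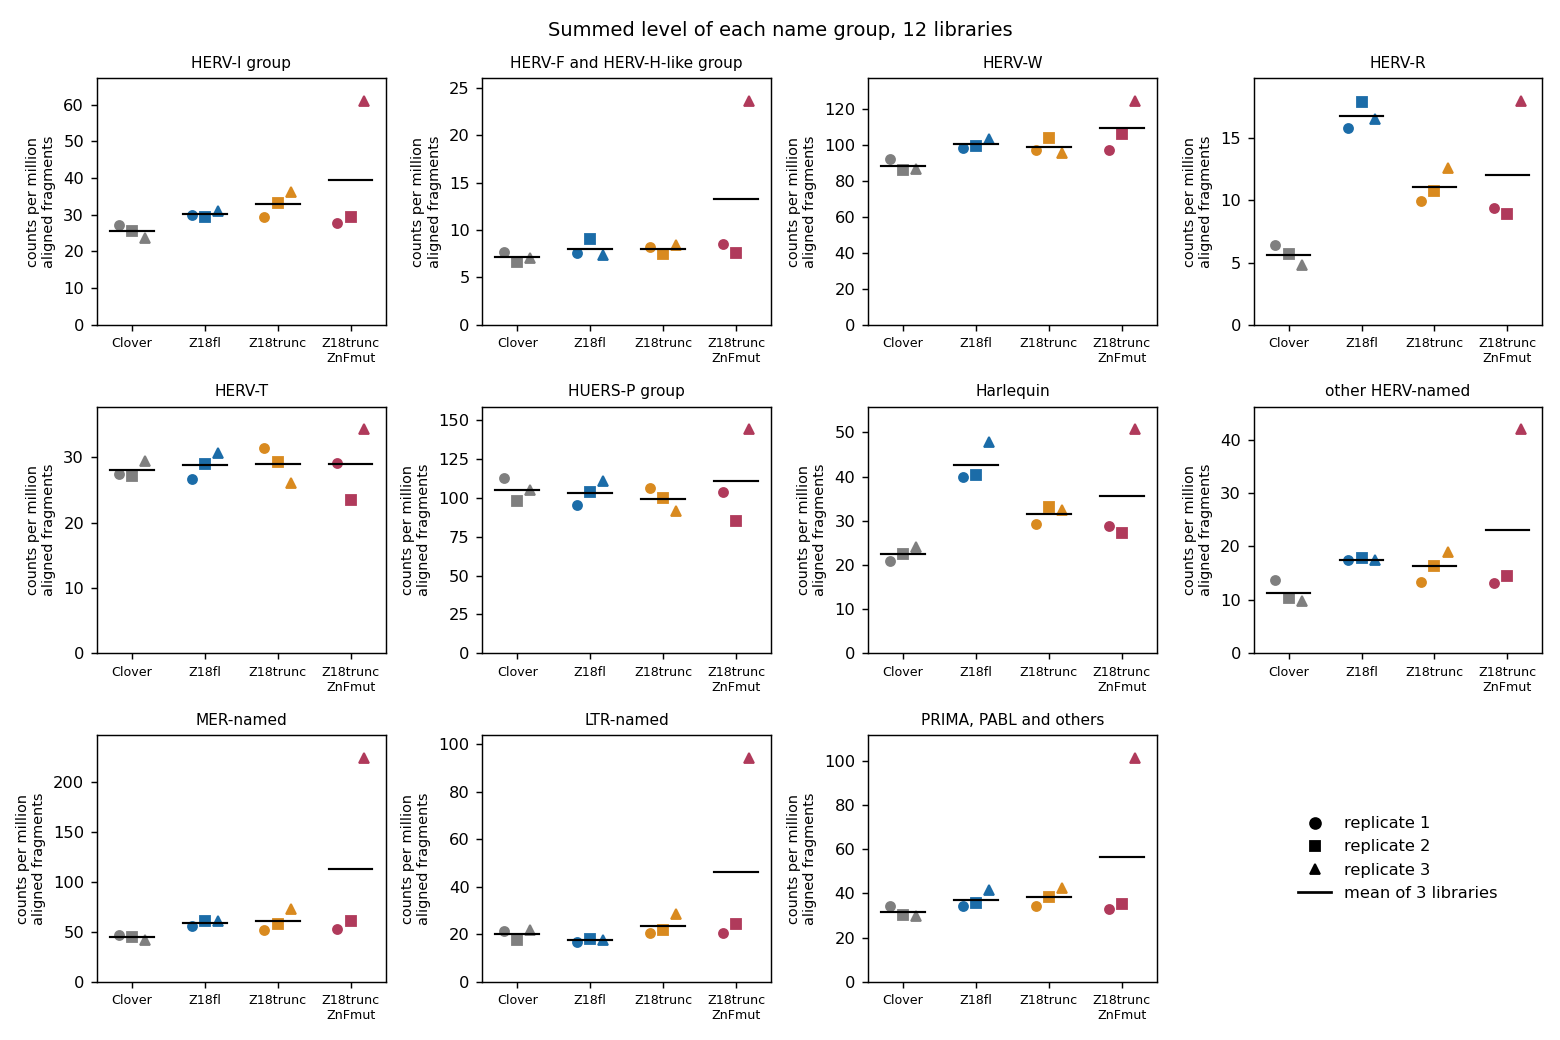
Summed member CPM (counts per 1000000 aligned fragments) by name group in the 12 libraries. Symbols are replicates and black lines are means of 3 libraries. HERV-R and Harlequin were higher in every Z18fl library than in every Clover and Z18trunc library, the HUERS-P group and HERV-T overlapped throughout those 3 groups, and Z18truncZnFmut replicate 3 was high in most groups.

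MER61-int and HERVP71A-int rose with both Z18fl and Z18trunc. The MER61-int locus at chr5:27472715-27477542 lies wholly in an exon of PURPL, a long noncoding RNA gene induced by p53. It had 1.14, 0.70 and 1.02 CPM in Clover, 4.16, 3.75 and 5.02 in Z18fl, 3.15, 3.64 and 2.96 in Z18trunc, with 2.28, 2.73 and 3.47 for Z18truncZnFmut. Every ZC3H18 library was above Clover. The log2 fold change by edgeR was 1.805 (SE 0.24, adjusted p = 1.14e-05) for Z18fl, 1.42 (SE 0.26, adjusted p = 0.000312) for Z18trunc and 1.38 (SE 0.31, adjusted p = 0.0025) for Z18truncZnFmut. All of these calls held in the 13 alternatives. It was 1 of the 2 exonic members that were higher with Z18fl.

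HERVP71A-int at chr1:247354310-247356802, in an intron of ENSG00000289728, had 0.30, 0.12 and 0.23 CPM in Clover, 1.37, 1.07 and 1.47 in Z18fl, 1.15, 1.16 and 1.24 in Z18trunc, with 0.95, 0.63 and 1.12 for Z18truncZnFmut. Its log2 fold changes by edgeR were 2.23 (SE 0.44, adjusted p = 0.000447), 2.08 (SE 0.47, adjusted p = 0.00171) and 1.84 (SE 0.55, adjusted p = 0.0199). The Z18truncZnFmut call was lost without Clover replicate 2 or 3 (adjusted p = 0.0915 and 0.0707), with DESeq2 (0.0525) and with no filter (0.137), and the locus was not tested with unique reads or when a Z18truncZnFmut library was left out. The HERVP71A-int locus at chr5:85647002-85647706, between genes, rose in the same 2 comparisons, from 0 to 0.18 in Clover to 0.90 to 1.26 in Z18fl and 0.76 to 1.18 in Z18trunc. It was not tested for Z18truncZnFmut, where it had 0.33 to 0.75, nor for Z18trunc without replicate 2 or 3. HERVP71A-int as a subfamily of 117 loci had log2 fold changes of 1.25 (SE 0.19, adjusted p = 4.98e-05 by edgeR) for Z18fl and 1.17 (SE 0.20, adjusted p = 0.000152) for Z18trunc, the largest among the member subfamilies tested with at least 50 mean counts. MER61-int gave 0.73 (SE 0.11, adjusted p = 8.04e-05) and 0.66 (SE 0.14, adjusted p = 0.00174). With Z18truncZnFmut HERVP71A-int gave 0.77 (adjusted p = 0.122 by edgeR) and MER61-int 0.67 (adjusted p = 0.107), and neither was called. Both were called without replicate 3, at 0.89 (adjusted p = 0.00749) and 0.60 (adjusted p = 0.00231). They were also called in the fit of 12 libraries (adjusted p = 0.0225 and 0.00878).

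HERV-W had loci called in both directions. HERV17-int held 86.1 to 92.2 CPM in Clover, 98.2 to 103 in Z18fl and 95.6 to 104 in Z18trunc. Of its 31 loci tested with Z18fl 4 were higher and 6 lower (background 28.3% and 24.6%), so that both shares lay below those over all loci. HERV17-int on chromosome 3, antisense to HTR1F, a serotonin receptor gene, had 2.58, 2.81 and 3.57 CPM in Clover, 7.05, 5.88 and 7.51 in Z18fl, 6.56, 7.93 and 7.18 in Z18trunc, with 5.32, 6.62 and 4.96 for Z18truncZnFmut. The ZC3H18 libraries all lay above Clover. The log2 fold change by edgeR was 0.82 (SE 0.18, adjusted p = 0.00114) for Z18fl and 0.93 (SE 0.18, adjusted p = 0.000549) for Z18trunc, and both held in all 13 alternatives. For Z18truncZnFmut it was 0.72 (SE 0.22, adjusted p = 0.0223), lost without Clover replicate 1 or 2 or Z18truncZnFmut replicate 2 (adjusted p = 0.172, 0.121 and 0.0695), with no filter (0.249) and in the fit of 12 libraries (0.0596).

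The HERV17-int locus at chr13:55054428-55060107, between genes and 2838 bases from LINC02335, went down with Z18fl. It had 13.3, 11 and 12.3 CPM in Clover, 7.74, 7.93 and 7.96 in Z18fl, 11.2, 10.8 and 11.01 in Z18trunc, with 10.6, 11.02 and 10.6 for Z18truncZnFmut. Z18fl lay below all 9 other libraries. The log2 fold change was −0.99 (SE 0.14, adjusted p = 1.34e-05 by edgeR) and −0.63 (adjusted p = 0.00118) with aligned fragments as the library size. With no filter it was −0.69 and the call was lost (adjusted p = 0.0714). Its neighbour at chr13:55060151-55060633, named after its value was seen, was also lower (log2 fold change −1.11, adjusted p = 0.0171). For Z18trunc the locus gave −0.49 (adjusted p = 0.00611), but the groups overlapped and the call was lost without Z18trunc replicate 1 or 2 (adjusted p = 0.0632 and 0.0789), with either strand (0.0501) and with aligned fragments (log2 fold change −0.15, adjusted p = 0.478). The HERV17-int locus with the most reads, chr2:75872462-75878417 in an intron of ENSG00000287474, had 19.5 to 22.7 CPM in Clover, 21.5 to 22.2 in Z18fl and 18.45 to 21.6 in Z18trunc. It was called lower in Z18fl (log2 fold change −0.33, adjusted p = 0.0248 by edgeR), but the value was 0.03 with aligned fragments as the library size, and the groups overlapped. The call was lost without Clover replicate 1 or any 1 of the Z18fl libraries (adjusted p = 0.0504 to 0.313), with DESeq2 (0.0851), with unique reads (0.0816) and with either strand (0.132). In Z18trunc it gave −0.45 (adjusted p = 0.00778), lost without Z18trunc replicate 1 (adjusted p = 0.138) and with aligned fragments (log2 fold change −0.10, adjusted p = 0.607).

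**Figure D4:**
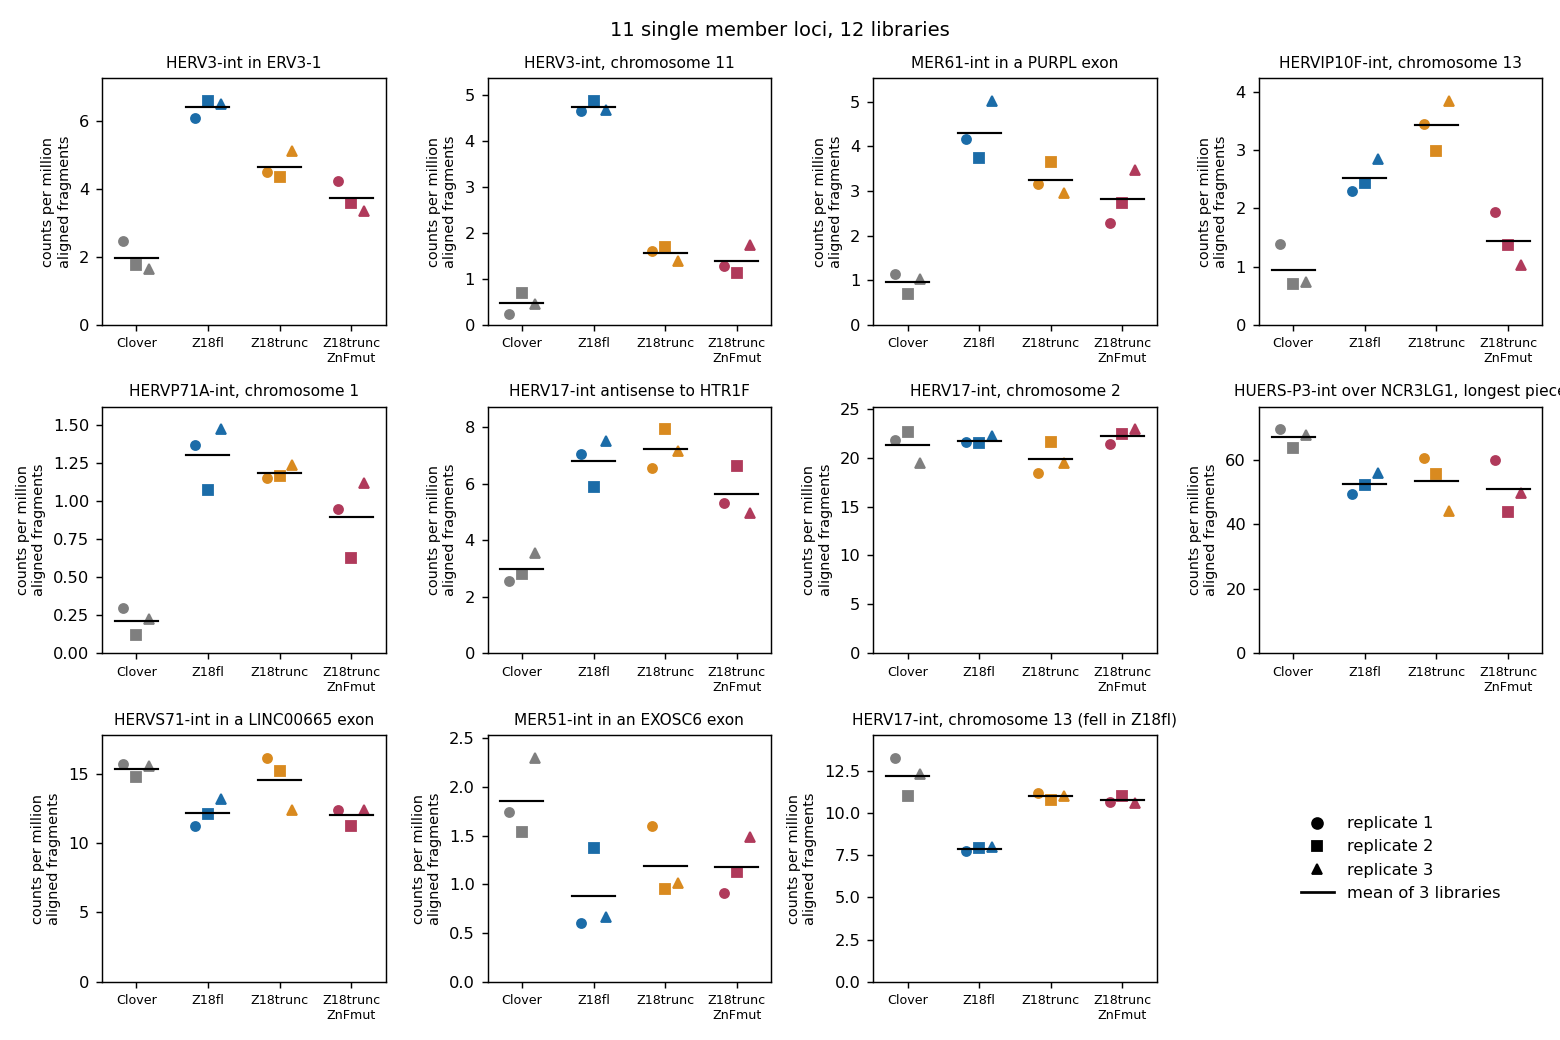
CPM (counts per 1000000 aligned fragments) of 11 member loci in the 12 libraries, named by subfamily and gene or chromosome. Symbols are replicates and black lines are means of 3 libraries. The first 6 were higher in every Z18fl and Z18trunc library than in every Clover library, HERV3-int on chromosome 11 was highest in Z18fl (4.66 to 4.88), and the HERV17-int locus on chromosome 13 was lowest in Z18fl (7.74 to 7.96).

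Several loci in exons fell. A stretch of 3 HUERS-P3-int pieces on chromosome 11 held 15.7% of all member counts and 7.51% to 23.4% of those of a library. Its longest piece, chr11:17370374-17376380, lies with 72.8% of its length in exons of NCR3LG1, the gene of the natural killer cell ligand B7-H6. It had 69.4, 63.7 and 67.6 CPM in Clover, 49.5, 52.2 and 55.9 in Z18fl, 60.4, 55.6 and 44.02 in Z18trunc, with 59.7, 43.7 and 49.6 for Z18truncZnFmut. The 9 ZC3H18 libraries lay below the 3 Clover libraries. The log2 fold change by edgeR was −0.71 (SE 0.10, adjusted p = 2.48e-05), −0.68 (SE 0.11, adjusted p = 8.21e-05) and −0.60 (SE 0.14, adjusted p = 0.00315). With aligned fragments as the library size these became −0.35 (adjusted p = 0.00659), −0.33 (0.0531) and −0.39 (0.105), so that only the Z18fl call remained, and with no filter none of the 3 did (adjusted p = 0.462 to 0.57). The piece at chr11:17376382-17377196, wholly exonic, was called lower in all 3 comparisons (log2 fold change −0.50, −0.75 and −0.50). With aligned fragments these became −0.14 (adjusted p = 0.409), −0.40 (0.0579) and −0.30 (0.348), and all 3 calls were lost. Its Z18fl call was lost without Z18fl replicate 1 or 3 (adjusted p = 0.083 and 0.0585 by edgeR), and its Z18truncZnFmut call without any library but Z18truncZnFmut replicate 3 (adjusted p = 0.0643 to 0.179). The piece at chr11:17377511-17378687, antisense to KCNJ11, was called lower for Z18trunc (−0.61, adjusted p = 0.00192) but not with aligned fragments (−0.27, adjusted p = 0.222), and its Clover and Z18trunc values overlapped.

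HERVS71-int at chr19:36325542-36327350, with 95.85% of its length in exons of the long noncoding RNA gene LINC00665, had 15.7, 14.7 and 15.6 CPM in Clover and 11.2, 12.1 and 13.2 in Z18fl. The log2 fold change was −0.70 (SE 0.125, adjusted p = 0.000177 by edgeR), and −0.335 (adjusted p = 0.0359) with aligned fragments as the library size. Z18trunc had 16.1, 15.2 and 12.4, which overlapped Clover, and was called lower (log2 fold change −0.42, adjusted p = 0.0135). That call was lost with aligned fragments (−0.07, adjusted p = 0.749) and without Z18trunc replicate 1, 2 or 3 (0.0527 to 0.0904). Unique reads (0.0802) and either strand (0.0735) lost it too. Z18truncZnFmut had 12.4, 11.2 and 12.4 (log2 fold change −0.55, adjusted p = 0.0126), a call lost without its replicate 1 or 2 (adjusted p = 0.11 and 0.0629) and with aligned fragments (−0.35, adjusted p = 0.203). With no filter the calls for Z18fl, Z18trunc and Z18truncZnFmut were all lost (adjusted p = 0.57, 0.837 and 0.462). The MER51-int locus at chr16:70249977-70250386 lies wholly in an exon of EXOSC6, which encodes a subunit of the RNA exosome. It had 1.74, 1.53 and 2.30 CPM in Clover and 0.60, 1.37 and 0.66 in Z18fl (log2 fold change −1.43, SE 0.35, adjusted p = 0.0022 by edgeR), a call that held in all 13 alternatives. LOR1-int in an exon of GARS1-DT, at chr7:30572871-30573848, fell from 0.84 to 1.58 in Clover to 0.48 to 0.58 in Z18fl (log2 fold change −1.52, SE 0.37, adjusted p = 0.00237), a call lost with no filter (0.132). PRIMA41-int in an intron of LINC02904, at chr8:143050481-143051280, was also lower in Z18fl, with 1.02 to 1.46 in Clover and 0.22 to 0.43 in Z18fl (log2 fold change −2.04, SE 0.41, adjusted p = 0.000466).

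With Z18trunc, 13 of 121 tested member loci were higher than with Clover (10.7%, background 22.5% of 13204 loci) and 15 were lower (12.4%, background 13.4%). The median log2 fold change of members was −0.22, against −0.03 over all loci. Of the 13 higher loci 12 were also higher with Z18fl, and of the 15 lower loci 11 were also lower, but both comparisons used the same Clover libraries. With aligned fragments as the library size 22 were higher and none lower, so that every fall with Z18trunc depended on the scaling. The median was then 0.13 for members and 0.31 over all loci, and the share called over all loci is not given. Leaving out Z18trunc replicate 1, 2 or 3 left 5, 6 or 7 lower calls. Intronic loci were 8 of 53 higher (15.1%, background 22.5%) and 5 lower, and exonic loci 1 of 21 higher and 6 lower (28.6%, background 13.4%). Beside the HERVP71A-int loci, one of the larger rises was that of HERV17-int at chr11:22313714-22316128, in an intron of SLC17A6-DT, with 0.06 to 0.28 CPM in Clover and 0.72 to 1.12 in Z18trunc (log2 fold change 1.93, SE 0.53, adjusted p = 0.00739 by edgeR). It was not tested with unique reads or without Z18trunc replicate 1 or 2. MER61-int in an intron of SCARB2, at chr4:76230620-76233572, gave 1.58 (adjusted p = 0.029), a call lost without Clover replicate 2 or 3 (adjusted p = 0.115 and 0.136) and with DESeq2 (0.066), and it was not tested with unique reads or without Z18trunc replicate 1 or 3.

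HERVIP10F-int on chromosome 13, in an intron of ENSG00000290808, was the 1 member locus called between Z18trunc and its zinc finger mutant. It had 1.38, 0.70 and 0.74 CPM in Clover, 2.29, 2.44 and 2.84 in Z18fl, 3.45, 2.98 and 3.84 in Z18trunc, with 1.94, 1.36 and 1.03 for Z18truncZnFmut. Z18trunc and Z18fl lay above every Clover library, whereas Z18truncZnFmut overlapped Clover. By edgeR the fold change from Clover on the log2 scale was 1.07 (SE 0.29, adjusted p = 0.00479) for Z18fl and 1.53 (SE 0.28, adjusted p = 0.000313) for Z18trunc, and both held in all 13 alternatives. Z18truncZnFmut against Z18trunc gave −1.08 (SE 0.25, adjusted p = 0.0412 by edgeR). This last call was lost without any 1 of the 3 Z18trunc libraries or without Z18truncZnFmut replicate 2 or 3, with log2 fold changes of −1.21 to −0.91 and adjusted p-values of 0.0835 to 0.214, and also with either strand (0.0518) and with the replicate block (0.0833).

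With Z18truncZnFmut, 6 of 102 tested member loci were higher than with Clover (5.88%, background 12.3% of 10152 loci) and 3 were lower (2.94%, background 4.83%). The median log2 fold change was −0.08, against −0.05 over all loci. With aligned fragments as the library size 7 were higher and none lower, at medians of 0.12 for members and 0.15 over all loci. The share called over all loci is not given for that scaling. Without replicate 3 the counts were 3 higher and 3 lower. The 6 were both HERV3-int loci, MER61-int over PURPL, HERVP71A-int on chromosome 1, HERV17-int antisense to HTR1F and Harlequin-int at chr5:82272899-82273283. That last locus, antisense to ATG10, had 0.23 to 0.74 CPM in Clover and 1.22 to 1.81 in Z18truncZnFmut (log2 fold change 1.45, SE 0.42, adjusted p = 0.0157 by edgeR), and lost its call without Clover replicate 1 or 2 (adjusted p = 0.0704 and 0.0989) and with unique reads (0.0617). All 6 were higher with Z18fl as well, against the same Clover libraries. The 3 lower loci were the 2 exonic pieces of HUERS-P3-int and HERVS71-int over LINC00665.

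**Figure D5:**
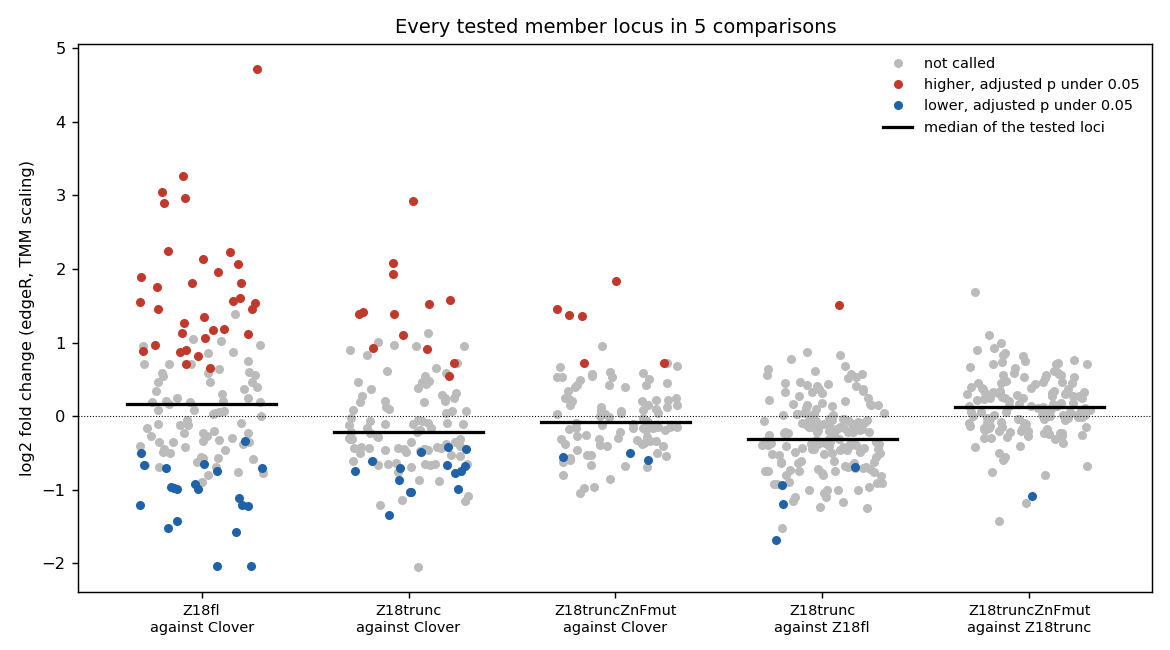
Log2 fold change by edgeR, after TMM scaling, of every tested member locus in the 5 comparisons. Each point is 1 locus, red or blue where the adjusted p was under 0.05, the black bar is the median and horizontal spread within a column is only to separate points. Against Clover, 34 of 131 loci were higher with Z18fl, 13 of 121 with Z18trunc and 6 of 102 with Z18truncZnFmut, beside 28.3%, 22.5% and 12.3% of all loci tested, so that fewer calls in the later columns are not particular to members.

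Between ZC3H18 forms few members differed. Of 168 loci tested for Z18trunc against Z18fl 1 was higher (background 2.62%) and 4 were lower (background 3.13%), with a median log2 fold change of −0.31 against 0.01 over all 19413 loci. The median was −0.40 in ERVK and −0.37 in ERVL internal parts, so that the shift is not particular to members. It was 0.18 in the ERV1 internal parts set aside. The lower member loci were HERV3-int on chromosome 11, described above, and 3 of Harlequin-int. Harlequin-int at chr17:43160721-43165886, over exons of ENSG00000267002, had 7.01, 7.03 and 8.82 CPM in Z18fl and 4.79, 5.44 and 4.66 in Z18trunc (log2 fold change −0.69, SE 0.155, adjusted p = 0.0112 by edgeR). The call was lost without Z18trunc replicate 1 (adjusted p = 0.0753), with no filter (0.542) and in the fit of 12 libraries (0.051). The locus in ANKS1A gave −1.20 (adjusted p = 0.0427), lost without any 1 of the 6 libraries (adjusted p = 0.058 to 0.154) and with aligned fragments, no filter, either strand, 12 libraries or the replicate block (0.0516 to 0.559). The third, at chrX:115916899-115923779 in an intron of DANT2, gave −0.94 (adjusted p = 0.0395) and was named after its value was seen. PRIMA41-int in LINC02904 was higher in Z18trunc, with 0.79 to 1.45 against 0.22 to 0.43 in Z18fl (log2 fold change 1.51, adjusted p = 0.0201), a call lost without Z18fl replicate 2 or Z18trunc replicate 1 (adjusted p = 0.106 and 0.103), with no filter (0.0888) and with 12 libraries (0.0523). For Z18truncZnFmut against Z18trunc, none of 142 loci was higher (background 0.368%) and 1 was lower (background 0.351%), the HERVIP10F-int locus. At an unadjusted p under 0.05 by edgeR there were 15 of 142 members in either direction, beside 2417 of all 16833 loci. DESeq2 also called none higher.

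Summed by subfamily, 6 of 48 tested members were higher with Z18fl than with Clover (12.5%, background 20.1%) and 10 were lower (20.8%, background 20.1%). Those higher were HERVP71A-int, HERV3-int, MER61-int, HERV15-int, PRIMA4-int and Harlequin-int. Among those with at least 50 mean counts, MER51-int (log2 fold change −1.07, SE 0.20, adjusted p = 0.000402 by edgeR), LTR46-int (−0.97, SE 0.17, adjusted p = 0.000234) and HERVIP10B3-int (−0.715, SE 0.16, adjusted p = 0.00211) fell most. HERV17-int (−0.29), HERVS71-int (−0.44) and HUERS-P3-int (−0.62), which rank among the subfamilies with the most reads, were lower too. With aligned fragments as the library size HERV17-int and HERVS71-int turned to 0.18 and 0.04, neither called. HUERS-P3-int (−0.15, adjusted p = 0.158) and HERVIP10B3-int (−0.24, adjusted p = 0.22) were no longer called either. With that scaling 15 subfamilies were higher and 2 lower. The median was then 0.27 for member subfamilies and 0.455 over all subfamilies, and the share called over all is not given. In the fit of 12 libraries HERV17-int, HERVS71-int and HUERS-P3-int lost their calls (adjusted p = 0.142 to 0.444), and MER51-int lost its own with either strand (−0.33, adjusted p = 0.0684). With Z18trunc 3 of 48 were higher (6.25%, background 15.7%), namely HERVP71A-int, MER61-int and HERV3-int, and 7 were lower (14.6%, background 11%). With aligned fragments as the library size these became 12 and 0, at medians of 0.43 for member subfamilies and 0.485 over all subfamilies. HERV17-int and HERVS71-int turned to 0.16 and 0.045, and HUERS-P3-int and MER50-int were no longer called. HERV3-int in Z18trunc, at 0.51 (SE 0.14, adjusted p = 0.00974), was lost without Clover replicate 3 or Z18trunc replicate 2 (adjusted p = 0.0563 and 0.0544) and with unique reads (0.0553). With either strand it fell to 0.14 (adjusted p = 0.335). Without Clover replicate 2 or 3 the lower subfamilies were 4 or 3.

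With Z18truncZnFmut none of 49 member subfamilies was called by edgeR (background 1.3% higher and 0% lower). Of these, 8 had an unadjusted p under 0.05, beside 171 of all 920 subfamilies, and DESeq2 called 1 higher and 1 lower. Without replicate 3 edgeR called 2 higher, HERVP71A-int and MER61-int, and 4 lower. For Z18trunc against Z18fl none was higher (background 1.48%) and 2 of 48 were lower (background 2.22%), HERV3-int (log2 fold change −0.65, SE 0.09, adjusted p = 0.00172 by edgeR) and Harlequin-int, neither of them called in the fit of 12 libraries (adjusted p = 0.277 and 0.546). For Z18truncZnFmut against Z18trunc none of 50 was called in either direction (background 0% and 0%). Of these, 1 had an unadjusted p under 0.05, beside 48 of all 956 subfamilies, and DESeq2 called none. HERVIP10F-int, PRIMA41-int and LOR1-int, the other subfamilies among the 10 with the most reads, were not called against Clover in any of the 3 comparisons. Some alternatives did call them. HERVIP10F-int was higher with aligned fragments for Z18fl (0.31, adjusted p = 0.0407 by edgeR) and Z18trunc (0.47, 0.0166), but lower with either strand for Z18fl (−0.25, 0.0129). LOR1-int was lower with either strand for both (0.00255 and 0.0453). PRIMA41-int was lower for Z18fl with the replicate block (0.043) and without Z18fl replicate 3 (0.00731).

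The loci that were higher with Z18fl were longer than the rest of the tested members, and their base composition was much the same. Their median length was 3253 bases, against 1748 for lower loci and 1687 for those not called, and their median AT content was 54.8%, 54.5% and 54.5%. Tested members as a whole were less AT-rich than all 9956 members, whose median was 60.1%. Across the 131 loci, which differ in depth and share libraries, the log2 fold change had a Spearman correlation of 0.22 with length, 0.13 with AT content, −0.015 with T content and −0.15 with divergence from the subfamily consensus. The median density of ATTTA over single loci was 1.35 per 1000 bases in higher loci, 1.11 in lower loci and 1.33 in those not called. That of TTTTT was 1.25, 1.97 and 1.22. For the polyadenylation hexamer it was 0.79, 0.48 and 0.089, so that the median was higher in called loci of both directions than in those not called. These are medians over loci and not densities of the pooled sequence. None of these was tested.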

How the data were processed

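Per the labels and the study's methods, the authors trimmed reads (cutadapt 4.6 in the submitters' processing notes) and used SQuIRE to map them to hg38 and count them per annotated repeat and strand, 1 file per library. The deposited total counts are expected counts, since reads that map to several places were shared out by expectation maximization, and near-identical copies can therefore exchange reads. The deposited files also give unique read counts, aligned fragments, FPKM values, the percent of an element's reads that were assigned to it and a divergence score. FPKM was not used in tests.

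Members and lists were chosen with earlier results of these data known. Total counts were rounded and tested with edgeR 4.0.16 in R 4.3.3 (quasi-likelihood test, TMM, filterByExpr with a minimum count of 10 and a minimum total of 15), over all repeat loci of the 6 element classes and with the 6 libraries of a comparison, and again on subfamily sums, with Benjamini-Hochberg adjustment. The test was first checked on simulated data. Summed levels were log2 CPM (counts per 1000000 aligned fragments), compared by exact permutation. Exons came from GENCODE 44, and elements covered to 50% or more by exons of their strand were called exonic. Loci with the most reads, the largest called changes without overlap of the groups (at least 20 mean counts, or 50 for subfamilies) and loci over ERV genes were named. Alternatives were DESeq2 1.42.0, aligned fragments as library size, no filter, unique reads, either strand, all 12 libraries in 1 fit, a replicate block and leaving out each library. Sums without the chromosome 11 stretch and without the 10 loci with the most counts were added after seeing the data. Nothing in the labels says that replicates were separate cultures, so p-values measure the spread between these samples, which may be technical. Counting limits cover counting error only. Some sequence windows and positions are not reported here.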

Additional observations from a re-analysis of the deposited data

Results flagged for a closer look

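Reads antisense to the members, which enter only the alternative with either strand, were more frequent per aligned fragment with ZC3H18 than with Clover. They came to a mean CPM (counts per 1000000 aligned fragments) of 206.5 in Clover (192.0 to 233.9 in the 3 libraries), 268.5 in Z18fl (254.9 to 282.6), 280.0 in Z18trunc (248.8 to 322.2) and 422.8 in Z18truncZnFmut. The Z18truncZnFmut libraries had 238.3, 276.1 and 753.8, the highest being replicate 3, and their mean was 257.2 without it. All 9 ZC3H18 libraries lay above the 3 Clover libraries, and the differences were not tested. The antisense level over all elements is not given beside them, so that the rise is not shown to be particular to members.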

How the results depend on the processing

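Against all element counts in place of aligned fragments, the summed difference from Clover turned to −0.154 (Z18fl), −0.32 (Z18trunc) and −0.177 (Z18truncZnFmut, −0.288 without replicate 3, added after seeing the data). Leaving out 1 library gave 0.206 to 0.282, 0.177 to 0.246 and 0.118 to 0.679, −0.073 to 0 for Z18trunc against Z18fl and −0.088 to 0.472 for Z18truncZnFmut against Z18trunc. In what follows the 3 forms against Clover come first (Z18fl, Z18trunc, Z18truncZnFmut), then Z18trunc against Z18fl and last the mutant against Z18trunc. Leaving out 1 library gave 25 to 32, 9 to 17, 3 to 6, 0 to 2 and 0 to 1 higher loci and 11 to 23, 5 to 17, 1 to 4, 2 to 3 and 0 to 1 lower loci. For subfamilies it gave 4 to 6, 2 to 3, 0 to 2, 0 to 1 and 0 higher and 9 to 12, 3 to 7, 0 to 4, 1 to 2 and 0 lower. Z18fl against Clover had 22 higher loci with unique reads and 56 with either strand, and 12 lower loci with DESeq2, 9 with aligned fragments, 38 with either strand and 4 with no filter. Z18trunc against Clover had 22 higher loci with aligned fragments and 20 with either strand, and 9 lower with DESeq2, 0 with aligned fragments, 27 in the fit of 12 libraries, 0 with no filter and 8 with unique reads. Z18truncZnFmut against Clover had 3 higher loci with DESeq2, 10 in the fit of 12 libraries and 3 with no filter, and 0, 12 and 0 lower with aligned fragments, 12 libraries and no filter. Z18trunc against Z18fl had 0 higher loci with DESeq2, 12 libraries or no filter and 2 with either strand, and 2 lower with DESeq2, 2 with aligned fragments, 1 with 12 libraries, 9 with either strand, 1 with no filter and 7 with unique reads. Z18truncZnFmut against Z18trunc had 1 higher and 2 lower loci with unique reads and 0 lower with either strand. Among subfamilies, aligned fragments gave 15 higher and 2 lower (Z18fl) and 12 and 0 (Z18trunc), the fit of 12 libraries 3 and 4 (Z18fl), 2 lower (Z18trunc), 2 and 2 (Z18truncZnFmut) and 0 lower (Z18trunc against Z18fl), and DESeq2 1 and 1 (Z18truncZnFmut). HERV17-int turned to 0.182 and 0.162 and HERVS71-int to 0.036 and 0.045 with aligned fragments (Z18fl, Z18trunc), HERV17-int on chromosome 2 to 0.029 (Z18fl), and MER50-int to 0.207 and 0.015 with either strand. Deviations of same-numbered libraries correlated by less than 0.1 in size, which gave no sign that the numbers pair the samples. Pairing is not excluded, since counting error in single loci could hide it. With the replicate block, lower loci were 2 in Z18trunc against Z18fl and 0 in Z18truncZnFmut against Z18trunc, lower subfamilies were 1 in Z18trunc against Z18fl, and summed differences stayed at 0.243, 0.206 and 0.491. The causes were not tested. Shares over all loci or all subfamilies are not given for these alternatives. Depth limits the locus tests to 183 of 9956 members.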
